A study of Mus musculus with 6 samples.

Results

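The genes described here are those of plasminogen activation at the cell surface: the activators *Plau* and *Plat*, the urokinase receptor *Plaur*, the serpins *Serpine2* and *Serpinb2*, plasminogen itself (*Plg*), and the plasminogen receptor genes *Anxa2*, *S100a10* and *Plgrkt*. They are 9 of the 40166 genes in the count table, and they were chosen by name for their roles while the differences of *Plau*, *Plat* and *Plaur* between the treatment groups were already known. The contrast of the groups is therefore given for these genes as a description, without p-values. Where one of them is said to be called, this describes the fit only. Bulk RNA was sequenced from 6 melanoma tumors grown in C57BL/6 mice from subcutaneously injected YUMM3.3 cells, a BRAF-mutant mouse melanoma line. Of these, 3 tumors came from mice gavaged with rigosertib (RGS, 300 mg/kg) and 3 from mice given water (vehicle), all after 17 days of treatment. Both groups carried the same transplanted line and were dosed by gavage 5 days a week. The study's methods give young adult mice of either sex, without saying which sex bore these tumors, and the labels call the tumors replicates without saying that each came from its own animal, so the p-values below measure the spread between these samples, which may in part be technical.

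Plasminogen circulates as an inactive protein made mainly by the liver. Urokinase (uPA, *Plau*) and tissue-type activator (tPA, *Plat*) cut it into plasmin, a protease that dissolves fibrin and degrades matrix. Urokinase works on cells when bound to its receptor uPAR (*Plaur*), plasminogen is held at the surface by annexin A2 with S100A10 and by other receptors, and serpins trap the activators in covalent complexes that are taken up by endocytic receptors. In melanoma, this system is known for its part in invasion.

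The counts per tumor summed to 22793087 to 32555494 with vehicle and 13837932 to 21617368 with RGS, with no overlap, so that depth moved with the treatment and its part was not tested, and a floor of 3 counts corresponded to at most 0.226 CPM (counts per 1000000 counts of the TMM-scaled library total; the floor covers counting error only). Of 53 marker genes for 9 cell types, 22 had no count in any tumor. *Dct*, *Tyr* and *Mlana*, defining genes of pigmented melanocytes, were at 0 in all 6 tumors, and the 7 melanocyte markers summed to 4.94 to 7.67 CPM with vehicle and 4.53 to 10.46 CPM with RGS, with none called between the groups. Many markers of host cells had no count as well, but not all. *Adgre1* and *C1qc* of macrophages, *Cd3e*, *Cd3d* and *Cd8a* of T cells, *Csf3r*, *Cxcr2* and *Retnlg* of neutrophils, *Emcn* of endothelium, *Lum* of fibroblasts, *Krt1* and *Trp63* of keratinocytes, and *Cpa3*, *Mcpt4*, *Tpsb2* and *Kit* of mast cells were at 0 throughout. These libraries are labelled as tumors, and in them the defining markers of melanocytes and of most host cells were absent or near the floor.

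Promoter sequence from RefSeq (build GRCm38.p6, 250 bases before each transcription start) was on hand for 5 of the 9 genes: *Plaur*, *Anxa2*, *Serpinb2*, *Serpine2* and *Plgrkt*. The heptamer TGANTCA, in which N is any base and which covers the sequence known to bind the transcription factor AP-1, was searched in it; its reverse complement has the same form, so both strands were covered. It was found once before *Plaur* and *Anxa2*, which were both higher with RGS, and once before *Serpinb2*, whose groups overlapped, and those stretches are shown because the heptamer lies there, 5′ to 3′ with it in capitals. They are chr7:24462377-24462456, chr9:69453551-69453630 and chr1:107511292-107511371, all on the plus strand.
Plaur: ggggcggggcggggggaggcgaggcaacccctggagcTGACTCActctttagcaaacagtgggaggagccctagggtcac
Anxa2: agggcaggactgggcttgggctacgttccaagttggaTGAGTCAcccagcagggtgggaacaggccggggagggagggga
Serpinb2: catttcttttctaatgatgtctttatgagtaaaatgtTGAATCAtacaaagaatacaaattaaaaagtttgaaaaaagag
The heptamer began 69 bases before the start of *Plaur* and 95 before that of *Anxa2*, and 94 or 181 before the alternative starts of *Serpinb2*. It was not found in the same stretch before *Serpine2* or *Plgrkt*. Of 32851 mouse promoters of this length, 6.75% contain it. By gene, it was in a promoter of 5.955% of the 10714 tested genes with a sequence, 7.69% of those called higher and 5.85% of those called lower with RGS. The heptamer is broader than the AP-1 sequence it covers. Its middle base was C before *Plaur*, G before *Anxa2* and A before *Serpinb2*, so the 3 matches are not the same sequence. A match is a run of letters, and no binding was measured here.

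Both activators were expressed in every tumor, and their RGS values all lay above their vehicle values. In bulk tumors, fewer cells of a type and less RNA per cell cannot be told apart, here and for every gene below. *Plau* (ENSMUSG00000021822.3, GRCm38 chromosome 14, 20836660 to 20843385, 11 merged exons) was at 223, 225 and 210.5 CPM in vehicle tumors 7, 8 and 9, as the samples are numbered, and at 1255, 1148 and 1223 CPM in RGS tumors 10, 11 and 12. The 3 values of a group lay close together, with a coefficient of variation of 3.56% with vehicle and 4.56% with RGS. The log2 fold change fitted by edgeR was 2.46 (standard error 0.15). *Plat* (ENSMUSG00000031538.6, chromosome 8, 22757727 to 22782844, 13 merged exons) was at 104, 129 and 131 CPM with vehicle and at 459.9, 550.5 and 539 CPM with RGS, a log2 fold change of 2.09 (standard error 0.16). Neither gene shares exon bases with another annotated gene or has a near-identical copy among the annotated transcripts, taken as at least 95% identity over 100 bases.

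The urokinase receptor gene moved with its ligand. *Plaur* (ENSMUSG00000046223.10, chromosome 7, 24462484 to 24475968, 6 merged exons) was at 195, 192 and 172 CPM in the vehicle tumors and at 659, 755 and 746 CPM in the RGS tumors, with no overlap between the groups (log2 fold change 1.95, standard error 0.15). Per kilobase of merged exon, which allows levels of different genes to be set side by side, *Plau* exceeded *Plaur* 1.26-, 1.29- and 1.36-fold in vehicle tumors and 2.11-, 1.68- and 1.81-fold in RGS tumors. The ligand to receptor ratio was thus higher in every RGS tumor, by 0.51 on the log2 scale. The ratio of *Plau* to *Plat* per kilobase ran from 4.23 to 5.64 with vehicle and from 5.50 to 7.20 with RGS, and the groups overlapped.

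**Figure D1:**
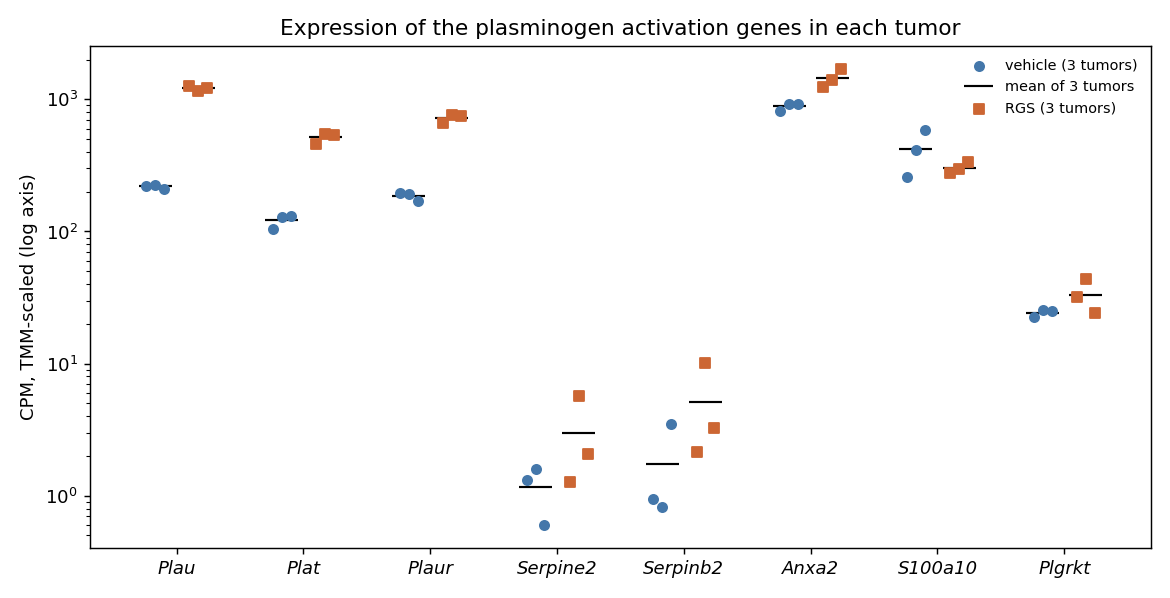
Expression of each gene in CPM on a log axis, with circles for the 3 vehicle tumors, squares for the 3 RGS tumors and lines for group means; *Plg*, with no count, is left out. The activators, *Plaur* and *Anxa2* show RGS tumors above all vehicle tumors, while *Serpine2*, *Serpinb2*, *S100a10* and *Plgrkt* overlap.

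The serpin genes among the 9 were expressed at lower levels than both activators in every tumor. *Serpine2* encodes protease nexin-1, which traps urokinase, tPA and thrombin (ENSMUSG00000026249.10, chromosome 1, 79794197 to 79861180). Its counts were 46, 45 and 14 with vehicle and 27, 75 and 34 with RGS, or 1.31, 1.603 and 0.602 CPM against 1.28, 5.65 and 2.08 CPM. RGS tumor 11 was highest, RGS tumor 10 lay within the vehicle range, and the log2 fold change was 1.34 with a standard error of 0.80. *Serpinb2* encodes PAI-2 (ENSMUSG00000062345.10, chromosome 1, 107511423 to 107535478) and had 33, 23 and 81 counts with vehicle and 45, 134 and 53 with RGS. In CPM this was 0.941, 0.819 and 3.48 against 2.13, 10.1 and 3.24, with vehicle tumor 9 above 2 of the RGS tumors (log2 fold change 1.56, standard error 0.70). Leaving out RGS tumor 11 brought the log2 fold changes to 0.50 for *Serpine2* and 0.61 for *Serpinb2*, and leaving out vehicle tumor 9 raised that of *Serpinb2* to 2.54, at which it was called higher. *Serpinb2* shares 291 exon bases with *Serpinb10* on the same strand, which had no count in any tumor.

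Activator was then weighed against inhibitor within each tumor, as the ratio of *Plau* plus *Plat* to *Serpine2* plus *Serpinb2* in counts per kilobase, which does not depend on library scaling. Activator exceeded inhibitor 198-, 213- and 70.7-fold in vehicle tumors 7, 8 and 9 and 569-, 115- and 369.9-fold in RGS tumors 10, 11 and 12. The groups overlapped, and the mean log2 ratio was 7.17 ± 0.89 with vehicle and 8.18 ± 1.19 with RGS (SD, n = 3 each), a difference of 1.01. This difference fell to 0.49 without vehicle tumor 9 and to 0.52 without RGS tumor 10, and was 1.67 without RGS tumor 11. In raw counts, without division by gene length, the excess was 145-, 146- and 83.7-fold with vehicle and 503-, 108- and 331-fold with RGS, and the groups overlapped as well. The ratio covers these serpins only, and other inhibitors are not weighed here. For such a value in groups of 3, the smallest two-sided p of an exact permutation test is 0.1, and no test was run, since the contrast was known beforehand.

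**Figure D2:**
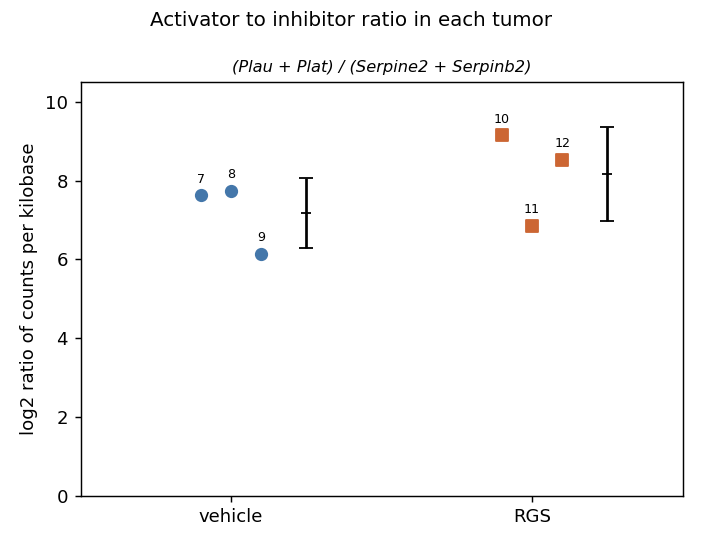
Log2 ratio of *Plau* plus *Plat* to *Serpine2* plus *Serpinb2* in counts per kilobase in each numbered tumor; black marks give the mean and SD of 3 tumors. Vehicle tumors span 6.14 to 7.74 and RGS tumors 6.85 to 9.15, so that the groups overlap.

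No plasminogen transcript was detected. *Plg* (ENSMUSG00000059481.5, chromosome 17, 12378608 to 12419385, 19 merged exons) had 0 counts in all 6 tumors, which allows at most the floor of 3 counts, 0.0856 to 0.226 CPM depending on the library. The hepatocyte markers *Alb*, *Apoa1* and *Serpina1a* were also at 0, and the 4 hepatocyte markers summed to at most 1.89 CPM.

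The plasminogen receptor genes did not share a direction. *Anxa2* encodes annexin A2, a phospholipid-binding protein that with S100A10 forms a surface complex docking plasminogen and tPA (ENSMUSG00000032231.14, chromosome 9, 69453620 to 69491795). It was at 823, 915 and 919 CPM with vehicle and at 1249.8, 1413 and 1705 CPM with RGS, without overlap (log2 fold change 0.72, standard error 0.16). It shares 98 exon bases with *Gm16144* on the opposite strand, which had only 8 to 34 counts per tumor. *S100a10* (ENSMUSG00000041959.14, chromosome 3, 93555080 to 93564643) was at 259.6, 414 and 582 CPM with vehicle and at 275, 295 and 334 CPM with RGS. Vehicle tumor 7 lay below all RGS tumors and vehicle tumors 8 and 9 above them. The log2 fold change was -0.47 (standard error 0.21), and leaving out vehicle tumor 7 took it to -0.73, at which the gene was called lower, while without vehicle tumor 9 it was -0.16. *Plgrkt*, whose product is a membrane receptor for plasminogen (ENSMUSG00000016495.12, chromosome 19, 29348599 to 29367390), was at 22.4, 25.6 and 25.0 CPM with vehicle and at 31.8, 43.7 and 24.2 CPM with RGS, with RGS tumor 12 inside the vehicle range (log2 fold change 0.45, standard error 0.23; 0.20 without RGS tumor 11).

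Since annexin A2 and S100A10 act as partners, their genes were set against each other in each tumor. Per kilobase, *Anxa2* was 1.03-, 0.718- and 0.513-fold of *S100a10* in vehicle tumors 7, 8 and 9. In RGS tumors 10, 11 and 12 it was 1.48-, 1.56- and 1.66-fold. The ratio was higher in every RGS tumor than in any vehicle tumor, with a mean log2 difference of 1.11 (vehicle -0.47 ± 0.50, RGS 0.64 ± 0.08, SD, n = 3 each). This comparison was chosen after the values were seen. A rise over vehicle tumors 7, 8 and 9, as in *S100a10*, was also seen in *Rpl13* (1669, 2470 and 2842 CPM). *Lrp1* and *Fn1* fell over the same tumors. These genes too were picked after their values were seen, and the part of such trends in the ratio was not tested.

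**Figure D3:**
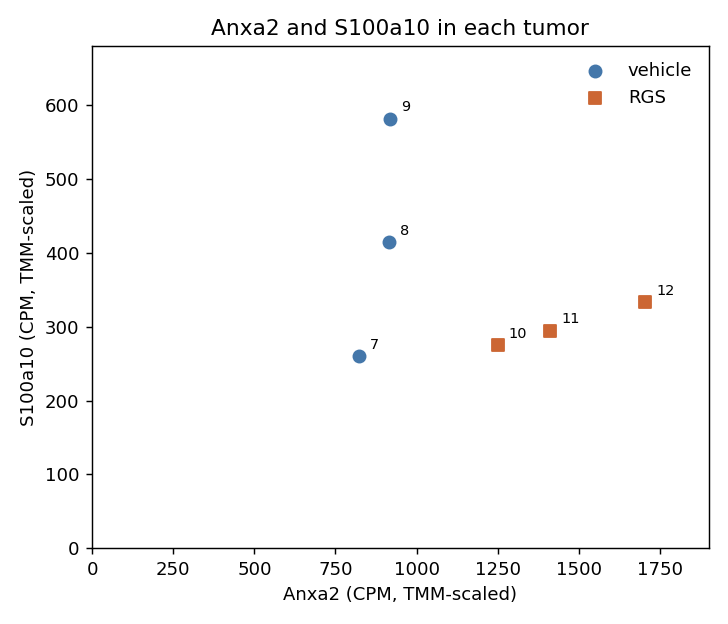
*S100a10* against *Anxa2*, both in CPM, with 1 numbered point per tumor. Vehicle tumors spread from 259.6 to 582 CPM in *S100a10* at similar *Anxa2*, and RGS tumors lie at 1249.8 to 1705 CPM of *Anxa2* with 275 to 334 CPM of *S100a10*.

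In order of level per kilobase, the vehicle tumors had *S100a10* first (345 ± 133 CPM per kilobase, SD, n = 3), then *Anxa2*, *Plau*, *Plaur*, *Plat*, *Plgrkt*, *Serpinb2*, *Serpine2* and *Plg*. In that order *S100a10* and *Anxa2* overlapped, and all other neighbours were separated in their ranges. In RGS tumors *Plau* stood first (511 ± 23.3 CPM per kilobase), above 99.6% of tested genes compared with 96.8% under vehicle. It was followed by *Anxa2* (390.2 ± 61.9), *Plaur* (275 ± 20.3), *S100a10* (248 ± 24.6), *Plat* (82.7 ± 7.90), *Plgrkt*, *Serpinb2*, *Serpine2* and *Plg*, and only *Plaur* and *S100a10* overlapped. *Serpinb2* lay above 26.3% of tested genes with vehicle and 42.5% with RGS, and *Serpine2* above 9.93% and 18.8%.

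By the rule of the fit across all genes (edgeR quasi-likelihood test, Benjamini-Hochberg adjusted p under 0.05 over 15355 tested genes), 8 of the 9 genes had enough counts to be tested. *Plau*, *Plat*, *Plaur* and *Anxa2* were called higher and none lower. The same rule called 16.3% of all tested genes higher and 16.5% lower (49.7% of calls were higher, and 37.2% when libraries were scaled by size only), and groups without overlap, seen for 4 of the 8 tested genes of plasminogen activation, occurred in 45.8% of all tested genes. As the genes were picked with this contrast known, nothing is read from these counts.

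The pattern of *Plau* over the 6 tumors was most closely followed by *Man1a*, *Itgb3*, *Igfbp3*, *Alcam* and *Gpr149*. Likeness was measured as the root mean square difference in log2 CPM after centring each gene over the 6 tumors, among 8902 other genes of at least 10 CPM, and for these 5 genes it was between 0.096 and 0.119. *Man1a*, a Golgi mannosidase, had 66.1, 62.9 and 52.0 CPM with vehicle and 369, 315 and 367 CPM with RGS. *Itgb3*, the integrin β3 subunit, had 6.96, 5.84 and 5.54 CPM with vehicle and 38.1, 33.5 and 32.2 CPM with RGS. *Igfbp3*, which binds insulin-like growth factors, ran from 203 to 274 CPM with vehicle and from 1320 to 1368 CPM with RGS. *Plat* and *Plaur* stood at ranks 40 and 45 of this order, at 0.25 and 0.27, and *Anxa2* at rank 1310. The likeness mostly reflects the step between the groups and is a description over 6 tumors.

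Other genes of the pathway came from a list of 54 genes in 6 roles, of which 31 were tested, 12 rose, 7 fell and 12 did not pass the test, beside 16.3% of all tested genes called higher and 16.5% called lower. This list and its roles were also chosen with earlier results known. These counts and those by role below describe it only. Each is to be read against the same shares of all tested genes, 16.3% called higher and 16.5% called lower. The median log2 fold change was 0.32, compared with -0.05 over all tested genes. Of the 23 not tested, 10 had no count in any tumor, among them the fibrinogen chains (*Fga*, *Fgb*, *Fgg*), vitronectin (*Vtn*) and the inhibitors *A2m*, *Serpina5* and *Cpb2*.

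Of 8 further inhibitors, 2 were tested and *Serping1*, the C1 inhibitor, fell. It was at 12.9, 16.0 and 13.3 CPM with vehicle and 1.56, 2.86 and 0.306 CPM with RGS (edgeR adjusted p = 1.19e-04, log2 fold change -3.17, standard error 0.52). *Serpini1*, neuroserpin, an inhibitor of tPA, did not pass (log2 fold change 1.13, edgeR adjusted p = 0.0656). The antiplasmin gene *Serpinf2* had at most 12 counts in any tumor.

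Of the other proteins that hold plasminogen at the surface, *Eno1*, the glycolytic enzyme enolase 1, rose from a mean of 1711 ± 124 CPM with vehicle to 3207 ± 309 CPM with RGS (± SD over 3 tumors; log2 fold change 0.91, edgeR adjusted p = 1.16e-04). *Hmgb1*, a chromatin protein also called amphoterin, fell from a mean of 219 ± 19.1 CPM with vehicle to 158 ± 11.5 CPM with RGS (± SD over 3 tumors; log2 fold change -0.46, edgeR adjusted p = 0.0238). It did not pass without vehicle tumor 8 or 9 or without RGS tumor 10 or 11 (edgeR adjusted p = 0.136, 0.0789, 0.0556 and 0.117). *Krt8* was not tested.

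The receptors that clear activator and serpin complexes were split. *Lrp1*, the endocytic receptor of uPA and tPA complexes, rose from 966, 577 and 541 CPM in the vehicle tumors to 2022, 1808 and 1654 CPM in the RGS tumors (log2 fold change 1.40, standard error 0.20, edgeR adjusted p = 2.40e-05). *Vldlr*, a related receptor, fell from 211, 194 and 164 CPM to 73.7, 73.8 and 66.3 CPM (log2 fold change -1.42, standard error 0.16, edgeR adjusted p = 2.10e-06). The remaining 4 tested genes of this group, *Lrpap1*, *Lrp2*, *Lrp8* and *Mrc2*, did not pass the test.

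Among 12 partners of the urokinase receptor, 8 were tested, 5 rose and none fell, beside 16.3% of all tested genes called higher and 16.5% called lower. *Itgb3* rose 5.66-fold in mean CPM (log2 fold change 2.50, standard error 0.24, edgeR adjusted p = 2.84e-07), and *Itga3*, the integrin α3 subunit, from a mean of 295 ± 67.8 CPM with vehicle to 863 ± 24.4 CPM with RGS (± SD over 3 tumors; log2 fold change 1.55, edgeR adjusted p = 1.41e-06). The others that rose were *Itga5*, *Itgav* and *Egfr*, named because the group is small. *Itgb5*, *Itgb1* and *Itgb2* did not pass.

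Of 9 genes for proteases or cofactors that activate pro-urokinase or plasminogen, only the lysosomal cathepsins were tested, and both rose. *Ctsb* went from 1761 ± 115 to 3205 ± 87.9 CPM and *Ctsl* from a mean of 2247 ± 185 CPM with vehicle to 4620.3 ± 352 CPM with RGS (± SD over 3 tumors; log2 fold changes 0.86 and 1.04, edgeR adjusted p = 1.29e-04 and 2.46e-05). The plasma enzymes *F12*, *Klkb1* and *Habp2* had at most 10 counts in any tumor.

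Of 15 substrates and their receptors, 11 were tested, 3 rose and 4 fell. *Fn1* (fibronectin) rose from 3909, 2438 and 2014 CPM to 6762, 5474 and 5461 CPM (log2 fold change 1.08, edgeR adjusted p = 3.80e-04), and *Thbs1* (thrombospondin 1) from a mean of 438 ± 114 CPM with vehicle to 677 ± 58.0 CPM with RGS (± SD over 3 tumors; log2 fold change 0.63, edgeR adjusted p = 0.00997). *Thbs1* did not pass without RGS tumor 10 (edgeR adjusted p = 0.0535). The third that rose was *F2r*, the thrombin receptor. *Pdgfd*, a growth factor released by urokinase, fell from 26.9 ± 3.54 to 8.84 ± 1.17 CPM, and *Bdnf*, a neurotrophin whose precursor plasmin can cut, from a mean of 34.7 ± 4.05 CPM with vehicle to 15.7 ± 2.27 CPM with RGS (± SD over 3 tumors; log2 fold changes -1.603 and -1.14, edgeR adjusted p = 6.67e-05 and 5.02e-04). *Met* and *Pdgfc* fell as well.

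**Figure D4:**
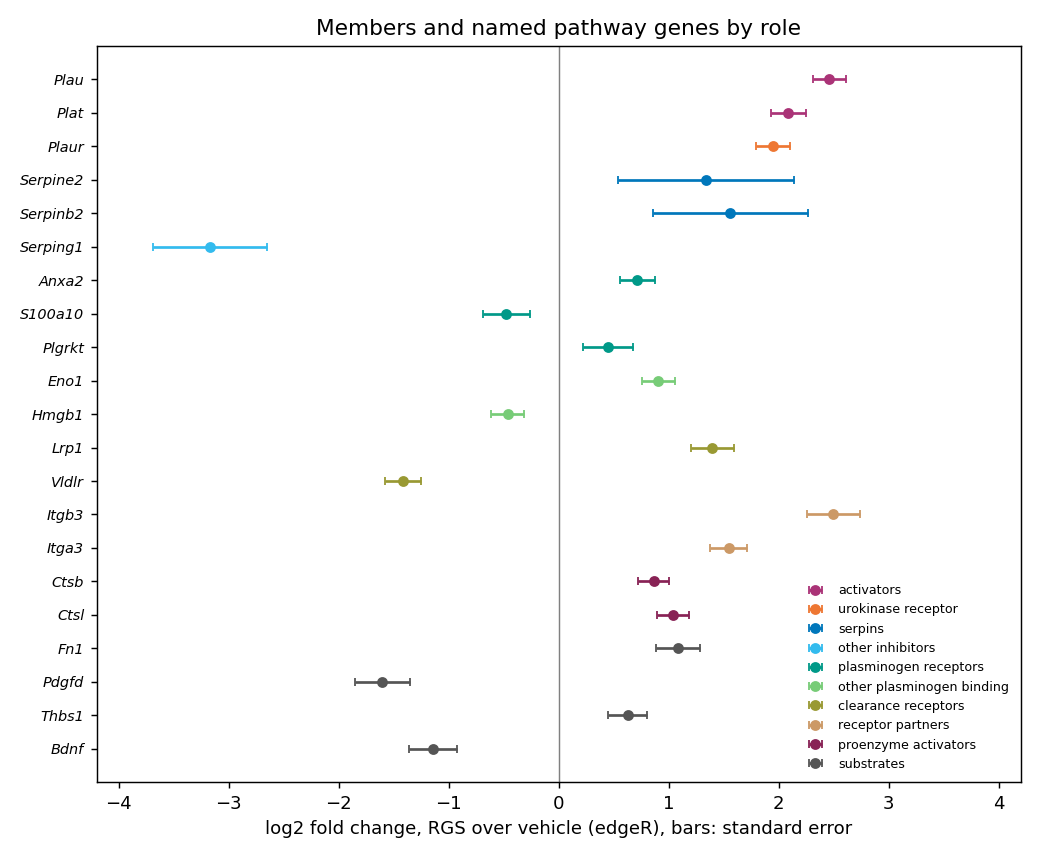
Log2 fold change of RGS over vehicle (edgeR, bars give the standard error) for the tested genes of plasminogen activation and the 13 pathway genes named by rule, coloured by role. *Plau* at 2.46 and *Itgb3* at 2.50 lie farthest to the right and *Serping1* at -3.17 farthest to the left, and both serpins of low counts have the longest bars.

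Some markers of other cell types were called as well, beside 16.3% of all tested genes called higher and 16.5% called lower. Endothelium, a known source of tPA, had 1 of 7 markers called higher (*Cdh5*), and its markers summed to 14.6 to 19.4 CPM with vehicle and 22.7 to 44.9 CPM with RGS. Most of this sum in every tumor came from *Plvap*, whose groups overlapped and which was not called. *Kdr* had at most 6 counts in any tumor and *Pecam1* at most 22, while *Tek*, with at most 14, had a lower mean with RGS. Macrophage markers, of which 1 of 8 (*Cd14*) was called higher, summed to 65.1 to 70.9 CPM with vehicle and 83.0 to 106 CPM with RGS, nearly all from *Cd68* and *Cd14*, while *Csf1r* had at most 1 count and *C1qa* at most 4. Of T cell markers, 1 of 5 (*Trac*) was called higher, and they summed to at most 0.602 CPM with vehicle and 0.612 to 1.42 CPM with RGS. Fibroblast markers had 1 of 6 called higher (*Dcn*) and 3 lower (*Col1a2*, *Pdgfra*, *Pdgfrb*), with sums of 375 to 572 CPM with vehicle and 276 to 305 CPM with RGS. None of the neutrophil, keratinocyte, mast cell or hepatocyte markers was called, and the first 3 of these lists summed to at most 0.673, 2.56 and 0.0612 CPM in any tumor. The sums of endothelial, macrophage, T cell and fibroblast markers did not overlap between the groups, as was so for 45.8% of all tested genes. For T cells the nearest values were 14 counts of *Cd4* in vehicle tumor 9 and 10 counts of *Trac* in RGS tumor 12. The part of these cell types in the differences above was not tested.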

How the data were processed

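The table the authors deposited holds whole-number counts of reads for each gene in each tumor, beside the gene's length and position. Per the labels, cutadapt 1.18, FastQC 0.11.7, STAR 2.7.1a and featureCounts 1.6.4 were used with build mm10; strand setting and handling of multi-mapping reads are not given in the sources used here. Of the gene identifiers, 38971 are in GENCODE M21 with the same start and end. Counts were filtered (median of at least 5 in at least 1 group), scaled with TMM and tested in R 4.3.3 with edgeR 4.0.16 (quasi-likelihood F test, Benjamini-Hochberg over 15355 genes). Standard errors are the log2 fold change over the square root of F. CPM are counts over TMM-scaled library totals, and CPM per kilobase divide by the table's gene length. The study named DESeq2; DESeq2 1.42.0, other scalings, filters, a robust fit and each tumor left out were tried. The code was also run on simulated counts with few changed genes, as many up as down, and the same dispersion for every gene. That setting differs from these data, so nothing about the calls here is drawn from it.

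The genes and lists were chosen with earlier results of these data known. Named pathway genes are up to 2 per role and direction with the largest log2 fold changes among called genes with a mean of at least 1 CPM; the other pathway genes named were picked after their values were seen, to show which genes a count holds. The 9 marker lists cover melanocytes, macrophages, neutrophils, T cells, endothelium, fibroblasts, keratinocytes, mast cells and hepatocytes.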

Additional observations from a re-analysis of the deposited data

How the results depend on the processing

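Under the alternatives, which were run for the tested genes of plasminogen activation and the 13 pathway genes named by rule, none of these changed direction. *Plau*, *Plat*, *Plaur* and *Anxa2* were called higher at adjusted p under 0.05 in all 12 other fits, with log2 fold changes from 2.32 to 2.50, 1.95 to 2.16, 1.81 to 2.01 and 0.56 to 0.81. All these fits reuse the same 6 tumors, and the genes were picked with the contrast known. Calls of the 9 genes are therefore a description here and add no support. *Serpinb2* became a call without vehicle replicate 9. *S100a10* was called lower, making 1 of the 9 genes lower in place of 0, with library size only, with all genes of at least 1 count, and without vehicle replicate 7 (0 to 1 over the 6 fits leaving out a tumor). Adding a minimum absolute log2 fold change of 1 left 1168 genes higher and 1450 lower in place of 2503 and 2533, 7 pathway genes higher in place of 12 and 5 lower in place of 7, and 3 of the 9 genes higher in place of 4, without *Anxa2*. With a tumor left out, 10 to 16 pathway genes were higher and 6 to 7 lower. Library size only shifted the median log2 fold change of all genes by -0.14 and gave 1870 higher and 3152 lower genes, so that 37.2% of calls were higher in place of 49.7%; the log2 difference of the macrophage marker sum was then 0.30 in place of 0.45, and *Thbs1* lost its call (edgeR adjusted p = 0.0503). The cause was not tested for any of these, beyond the construction of the fold limit and of the scaling. The activator to inhibitor difference was 0.70 to 1.21 with other genes or raw counts and 0.49 to 1.67 with a tumor left out. The use of the alternatives for pathway genes was chosen after seeing the data. No paired analysis was possible because the groups share no replicate number. *Serpine2* and *Serpinb2* had 14 to 134 counts per tumor, fewer than the other tested genes among the 9.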

Other observations

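*Plgrkt* lies head to head with *Cd274*, the gene of the checkpoint ligand PD-L1, on chromosome 19, with 64 bases between the annotated genes. The 64 bases are counted from the outermost annotated end of *Plgrkt*, at 29367390. The stretch before its RefSeq start, used above, was 29361872 to 29362121, inside the annotated gene, so that start lies farther from *Cd274*. *Cd274*, named after its values were seen, was at 8.16, 9.19 and 5.93 CPM in the vehicle tumors and at 31.4, 28.4 and 19.3 CPM in the RGS tumors (log2 fold change 1.76, standard error 0.27, edgeR adjusted p = 7.34e-05). The values of *Plgrkt* in the same tumors overlapped between the groups. *Pdcd1lg2*, the gene of PD-L2 on the same chromosome, had 0.029, 0.890 and 0.945 CPM with vehicle and 5.25, 8.96 and 6.54 CPM with RGS (log2 fold change 3.49, standard error 0.77, edgeR adjusted p = 0.00176).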
